A study of Mus musculus with 24 samples.

Results

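Interferon-stimulated genes are the genes that cells switch on when they sense interferon, and 43 of them are described here in mouse kidney, out of 30153 genes measured. The 43 were set by a list of gene symbols that applies no threshold to these libraries, but the list was drawn up with earlier results of these data known. 33 are type I-like, meaning that they are best known as targets of type I interferon (alpha and beta), and 10 are gamma-like, meaning that they are best known as targets of interferon gamma. Many genes of both kinds answer to both interferons, so the division is one of emphasis. All 43 symbols were found in the table.

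The series measured RNA in 24 libraries, 4 animals for each of 6 groups, all labelled as kidney of C57/BL6 mice. Its title describes hypertensive mice that overexpress the human angiotensin receptor type 1, and the group labels name 2 haplotypes of it, Haplotype-I (Hap-I) and Haplotype-II (Hap-II). The groups compared here are adult Hap-I mice on western diet, aged Hap-I mice on western diet, adult Hap-II mice on western diet, and adult C57 mice with no diet label. 2 more groups, adult and aged Hap-I mice with no diet label, serve as a reference only. The labels give no sex, exact age, batch or date, and no promoter or founder line for the transgene. No library pairs the diet with C57 mice, and none pairs Hap-II with age, so transgene and diet change together in every comparison with C57.

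Type I interferons bind a receptor on nearly every cell and act through JAK kinases and a complex that includes Stat2 and Irf9 and binds a DNA element called the interferon-stimulated response element (ISRE). Interferon gamma acts through a different receptor and another DNA element, the gamma-activated site (GAS). The targets include RNA and DNA sensors, proteins that block viral translation and release, GTPases that attack vacuoles holding microbes, and the machinery that loads peptides on MHC class I. In kidney, resident macrophages, endothelium and tubule cells can all carry such a response, and it is known from viral infection, lupus nephritis and injury.

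Both elements were looked for upstream of the 43 genes. RefSeq (GRCm38.p6) gave a window of 250 bases before to 50 bases after the start for 31 of the 43. The ISRE core, GAAA and again GAAA after any 2 bases, searched on both strands, was present in 11 of 22 type I-like windows (50%), in 6 of 9 gamma-like windows (66.7%) and in 3.99% of 27025 genes. The GAS core TTCNNNGAA, which reads the same on both strands, was present in 4 of 22 (18.2%), 3 of 9 (33.3%) and 9.55%. 4 of the 31 windows held both cores and 11 held neither, among them those of Irf7, Ifi209, Phf11d and Xaf1. A match is a string of letters in a window and was not tested as a binding site. The stretches below are a selection from genes described further on that hold a match. ISRE or GAS matches upstream of other such genes, among them Stat2, Oas1a, Ifit2, Igtp and Psmb8, are not shown. The stretches run 5′ to 3′ on the gene's own strand, with the matched letters in capitals. The first 5 belong to type I-like genes and the last 4 to gamma-like genes.
Isg15 (ISRE, chr4:156200855-156200916, minus strand): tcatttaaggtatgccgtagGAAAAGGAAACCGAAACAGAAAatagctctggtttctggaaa
Bst2 (ISRE, chr8:71537567-71537622, minus strand): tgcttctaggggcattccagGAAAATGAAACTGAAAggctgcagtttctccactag
Ifit1 (ISRE, chr19:34640765-34640833, plus strand): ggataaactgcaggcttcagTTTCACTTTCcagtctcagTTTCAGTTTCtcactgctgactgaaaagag
Ifit3 (ISRE, chr19:34583353-34583436, plus strand): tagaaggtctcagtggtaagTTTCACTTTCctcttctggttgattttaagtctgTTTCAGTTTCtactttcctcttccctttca
Phf11b (ISRE, chr14:59341351-59341400, minus strand): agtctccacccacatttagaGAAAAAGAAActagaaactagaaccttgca
Gbp2 (ISRE, chr3:142620584-142620633, plus strand): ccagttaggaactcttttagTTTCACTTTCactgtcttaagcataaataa
Gbp3 (ISRE, chr3:142559979-142560034, plus strand): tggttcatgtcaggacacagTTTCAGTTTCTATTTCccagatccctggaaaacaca
Irgm1 (ISRE, chr11:48871421-48871470, minus strand): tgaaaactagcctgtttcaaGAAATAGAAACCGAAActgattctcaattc
Gbp7 (GAS, chr3:142530210-142530277, plus strand): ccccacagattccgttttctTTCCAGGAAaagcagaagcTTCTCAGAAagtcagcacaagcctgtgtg
The ISRE cores of Isg15, Bst2, Gbp3 and Irgm1 overlap one another, so that several matches form 1 run of capitals. The Gbp7 stretch shows its pair of GAS cores, and an ISRE core lies downstream of them in the same window. The Bst2 window also holds a GAS core, TTCCAGGAA, that runs into its ISRE cores.

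8 of the 24 libraries, those of both Hap-I groups with no diet label, did not carry kidney RNA. Summed TPM (a level corrected for gene length and for the total of each library) of 6 neuron markers was 3521 to 4495 in them and at most 5.13 in the other 16, and summed TPM of 11 nephron markers was at most 9.56 against at least 556. They are called brain-like below and the other 16 are called the kidney libraries. Mitochondrially encoded genes took 21.2% to 35.7% of TPM in the 12 western-diet libraries and 12.4% to 16.9% in the 4 C57 libraries. The fewest genes above 0 were found in adult Hap-I library 4 (15975) and adult Hap-II library 3 (15999). The table holds no read counts, so depth is unknown. Y-linked RNA, which only male cells carry, divided the kidney libraries. Summed TPM of Ddx3y, Eif2s3y, Kdm5d and Uty was 13.2 to 40.2 in adult Hap-I libraries 2, 3 and 4, aged libraries 3 and 4 and Hap-II libraries 3 and 4, and at most 2.16 in adult Hap-I library 1, aged libraries 1 and 2, Hap-II libraries 1 and 2 and all 4 C57 libraries. The text calls these libraries with and without Y-linked RNA, and gives results within each. The division uses Y-linked RNA alone, and it was taken up after the libraries had been seen to differ in the genes described here.

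Ifi27l2a, a small mitochondrial membrane protein of the ISG12 family, had the highest mean level of the 43 over the 16 kidney libraries, 150.2 TPM (range 31.6 to 545). Bst2 (tetherin, which holds budding virus at the cell surface) followed at 48.2 TPM, then Ifit3 at 38.2, Irgm1 at 29.7, Irf7 at 27.8, Samd9l at 27.2, Gbp3 at 22.5 and Isg15 at 22.0. The ranges of neighbours in this order overlapped widely, so their order is not firm. At the other end stood Oas2 (1.25 TPM), Ifi209 (1.32), Rtp4 (1.33), Mx2 (1.35) and Mx1 (0.659). All 43 passed the filter of 1 TPM in at least 4 of the 16 kidney libraries. Oas2 and Mx1 passed it only with the aged group, so a difference of that group helped to admit them, and counts of calls in that group are also given over the other 41.

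Most of these genes had lower levels in the brain-like libraries. For 16 of the 43 (37.2%), all 16 kidney libraries lay above all 8 brain-like libraries, against 11.7% of 15200 genes. The 16 were 14 of 33 type I-like genes and 2 of 10 gamma-like genes (Cxcl10 and Iigp1). The median ratio of kidney to brain-like mean was 3.48 over the 43. Samd9l, a restriction factor against poxviruses, averaged 27.2 TPM in kidney and 1.31 in the brain-like libraries. Rsad2 (viperin) averaged 11.8 and 0.801 TPM. Stat2 and Dtx3l went the other way in their means, with Stat2 at 4.62 TPM in kidney and 9.70 in the brain-like libraries and Dtx3l at 2.44 and 2.80. No member was lower in all kidney libraries.

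**Figure D1:**
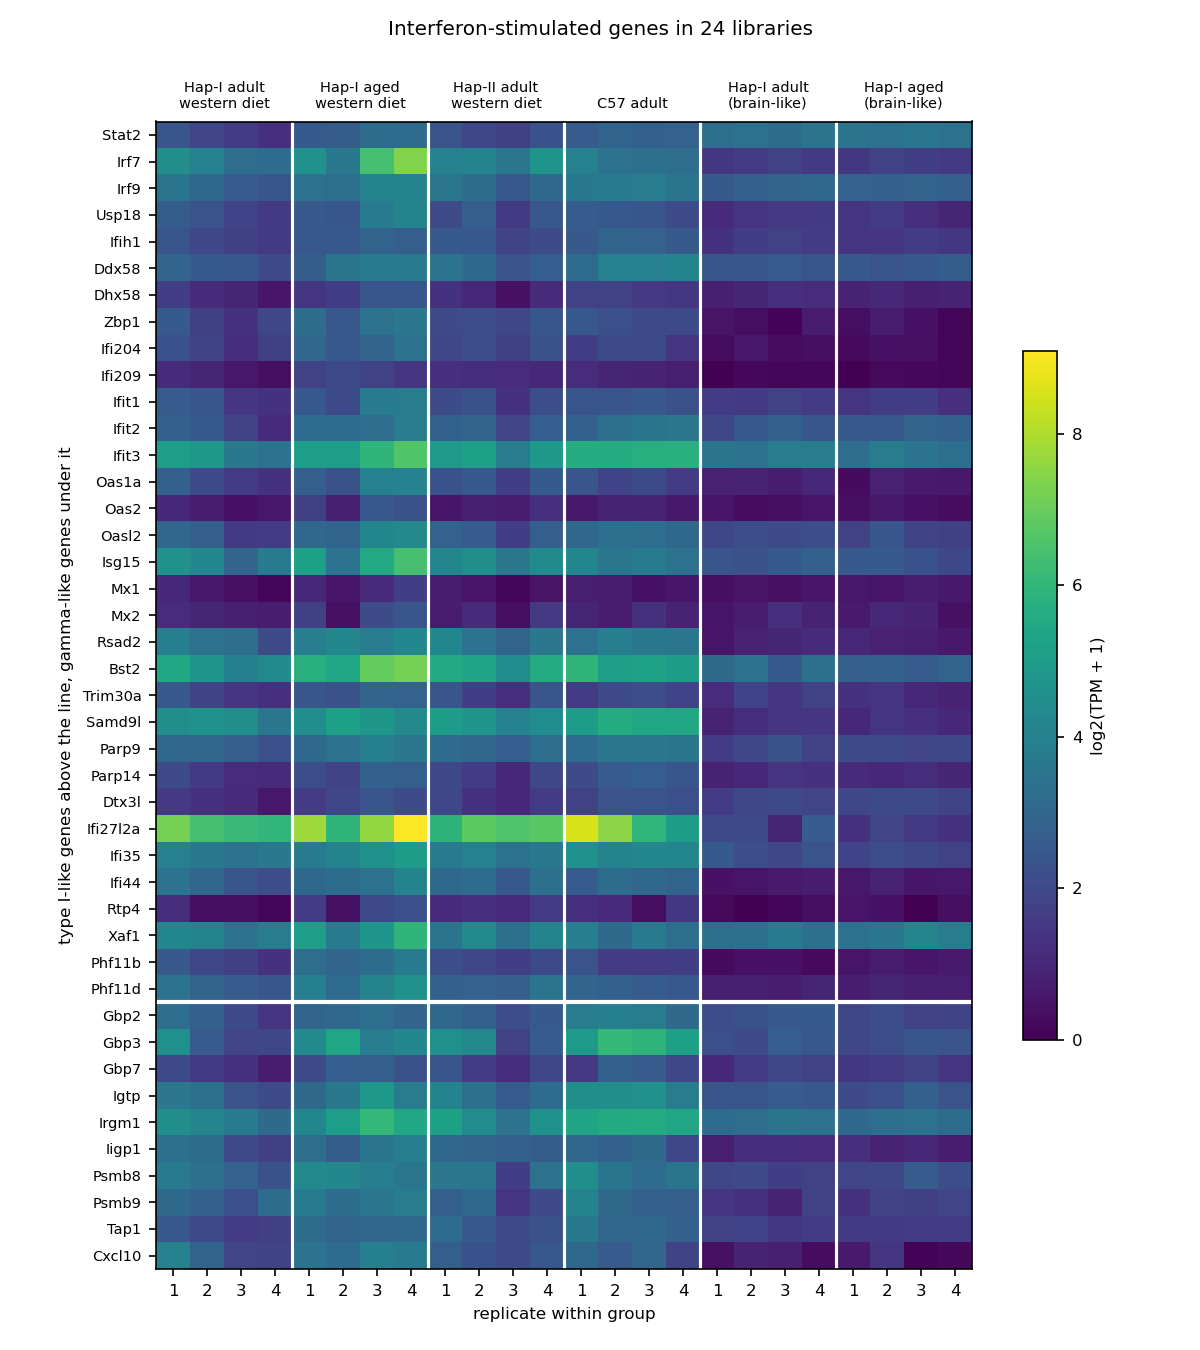
Level of each of the 43 genes as log2(TPM + 1) (colour) in each of the 24 libraries (columns, replicates 1 to 4 of each group), with type I-like genes above the horizontal line and gamma-like genes under it. Ifi27l2a is the brightest row, aged western-diet libraries 3 and 4 are bright for Irf7, Bst2 and Isg15, and the 8 brain-like libraries are dark for most genes.

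The mean log2(TPM + 1) of the 33 type I-like genes summarised each library. It was 3.00, 2.59, 2.13 and 1.98 in adult Hap-I libraries 1 to 4, 3.20, 2.88, 3.76 and 4.03 in the aged group, 2.79, 2.79, 2.21 and 2.87 in adult Hap-II, and 2.96, 2.95, 2.90 and 2.75 in C57. Aged libraries 3 and 4 stood above every other kidney library, aged library 1 above all adults, and aged library 2 within the adult range. The 4 C57 libraries lay close together (SD 0.096), while the western-diet groups had SDs of 0.30 to 0.52. The same mean over the 10 gamma-like genes was 3.47, 2.87, 2.20 and 2.01 in adult Hap-I, 3.46, 3.61, 3.87 and 3.68 in aged, 3.46, 3.09, 2.11 and 2.78 in Hap-II, and 3.84, 3.80, 3.77 and 3.24 in C57. Here the aged and C57 libraries shared one range, and the lowest values among western-diet adults came from adult Hap-I libraries 4 and 3 and Hap-II library 3.

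The balance between both kinds of gene changes little with how a library is scaled, since each library's scale enters both means. The type I-like mean minus the gamma-like mean was -0.88, -0.84, -0.87 and -0.49 in C57. It was -0.47, -0.28, -0.07 and -0.03 in adult Hap-I, -0.26, -0.73, -0.11 and 0.36 in aged and -0.67, -0.30, 0.10 and 0.09 in Hap-II. C57 sat at the low end, with 3 of its 4 libraries under every other kidney library. In each western-diet group the libraries without Y-linked RNA lay under those with it and did not overlap them. Since all 4 C57 libraries lack Y-linked RNA, group and Y-linked RNA cannot be told apart in this balance, except through the 5 western-diet libraries without Y-linked RNA, which lay at -0.26 to -0.73. In the 8 brain-like libraries, all with Y-linked RNA, it was -0.27 to -0.39. As the RNA comes from whole tissue, fewer responding cells and less RNA per cell cannot be told apart in any of these values.

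**Figure D2:**
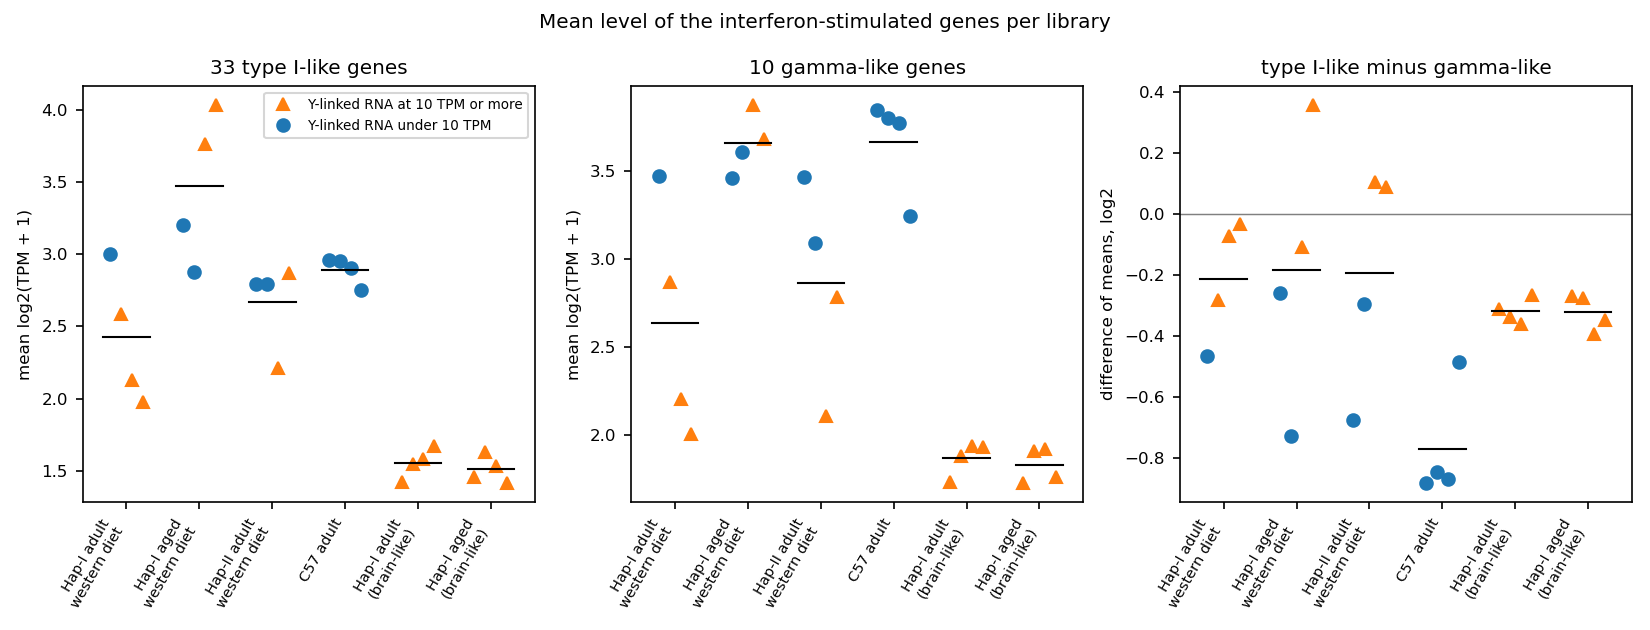
Mean log2(TPM + 1) of the 33 type I-like genes (left) and the 10 gamma-like genes (middle) in each library, and their difference (right), with the mean of each group as a black line, libraries with Y-linked RNA as orange triangles and those without as blue circles. Aged western-diet libraries 3 and 4 hold the highest type I-like means (3.76 and 4.03), and within each western-diet group the orange points lie above the blue ones in the right panel.

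The comparison of aged with adult Hap-I mice on western diet asks what age adds under the diet. All 43 genes had a higher mean in the aged group, with a median log2 change of 1.03 (type I-like 1.05, gamma-like 0.97) against 0.32 over all 12923 genes tested. After median-of-ratios rescaling, which sets each library by the median ratio over genes, the median was 0.74 against -0.0046 over all genes, and 42 of the 43 stayed above 0 (49.5% of genes), with Samd9l at -0.03. None of the 43 passed the adjusted threshold of 0.05 in limma, a linear model fitted to all genes. Over all genes 0.0232% passed as higher and 0.00774% as lower. At an unadjusted p under 0.05, 38 of the 43 were higher as deposited (36 of the 41), against 14.9% of all genes. After rescaling the count fell to 23 of the 41, and the all-gene share for it is not given. A log2 change above 0 was found for 82.2% of all genes, so the shared sign of the 43 is read against that figure. For 11 of the 43 every aged library lay above every adult library as deposited, against 6.18% of genes. The 11 were Stat2, Ifih1, Ifi204, Ifi209, Ifit2, Ifit3, Dtx3l, Phf11b, Gbp7, Psmb9 and Tap1. The lowest adjusted p, 0.0659, was shared by Phf11b and Ifi209. The count of calls turned on the fit, since 18 of 43 (17 of the 41) passed when all 24 libraries shared one estimate of spread (2.7% of genes higher and 0.211% lower), and 34 (33 of the 41) passed when libraries were weighted by their own spread (15.8% of genes higher).

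Among libraries with Y-linked RNA the changes were larger, and among those without it they scattered around the background. The comparison with Y-linked RNA leaves out adult library 1, the highest of its group for 32 of 33 type I-like genes, and aged libraries 1 and 2. As the split was made with that order known, its counts describe these libraries and are no independent support for an age effect. Comparing aged libraries 3 and 4 with adult libraries 2, 3 and 4, 13 of 43 genes passed the adjusted threshold as higher, against 0.24% of all genes, and all 13 were type I-like (12 of the 41). They were Irf7, Bst2, Oas1a, Ifit3, Oasl2, Usp18, Ifit1, Phf11b, Zbp1, Oas2, Phf11d, Stat2 and Dhx58. The median log2 change was 1.57 (type I-like 1.58, gamma-like 1.34) against 0.31 over all genes. Comparing aged libraries 1 and 2 with the lone adult library 1, none passed (0.00774% of all genes higher) and 23 of 43 were above 0 (67.7% of all genes). There the median was 0.08 (type I-like 0.03, gamma-like 0.20), against 0.15 over all genes. This fit assumes that the lone adult library varies like the other groups. The difference between both age effects was above 0 for all 43 genes, with a median of 1.56 (all genes 0.16). 29 of the 43 had an unadjusted p under 0.05 for that difference, against 1.83% of genes, and none passed after adjustment (lowest 0.345), so it is not established for any single gene. After rescaling, 2 of the 43 passed within the libraries with Y-linked RNA (Stat2 and Irgm1, against 0.0551% of genes), with a median of 1.26 and -0.03 over all genes.

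**Figure D3:**
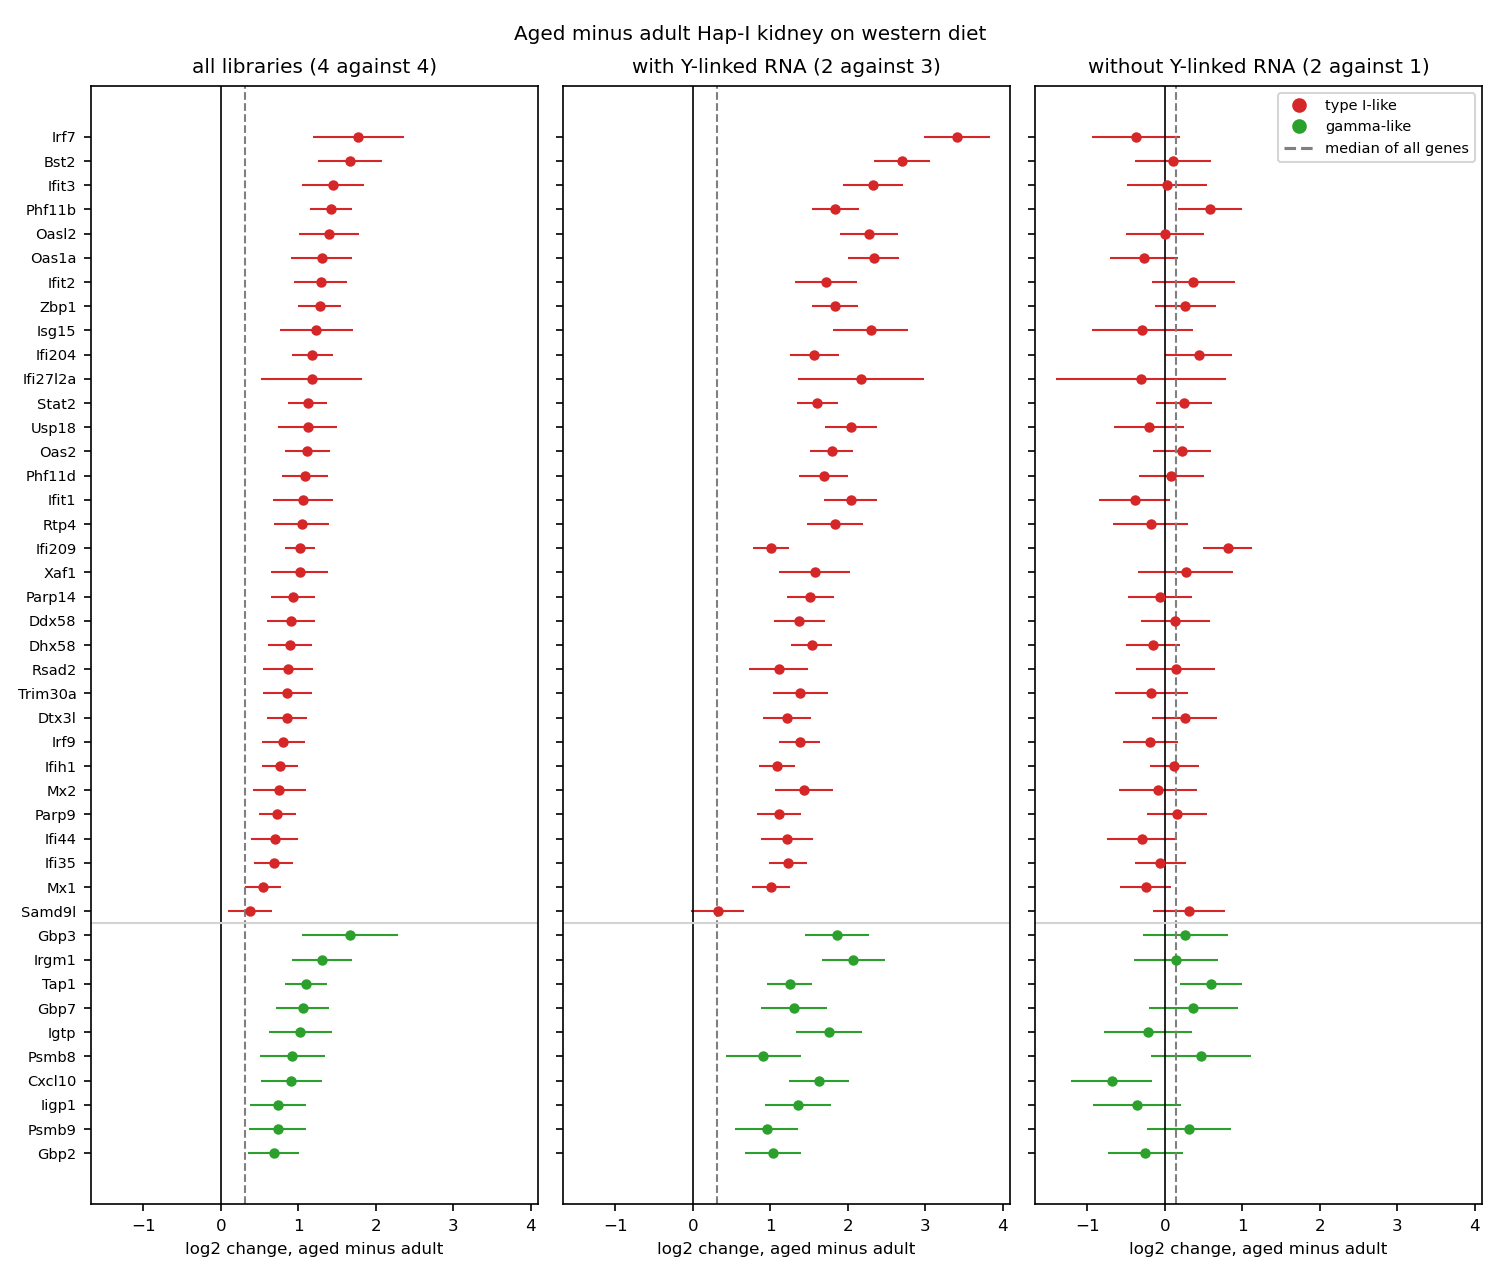
Log2 change of each gene, aged minus adult Hap-I on western diet, with its standard error (horizontal bars), over all libraries (left), libraries with Y-linked RNA (middle) and libraries without it (right), with the median of all genes as a dashed line. All 43 points lie above 0 in the left and middle panels, with medians of 1.03 and 1.57, and they lie on both sides of 0 in the right panel.

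The genes of signalling and transcription are taken first. Irf7, the transcription factor that amplifies interferon production, read 21.6, 15, 8.48 and 8.05 TPM in adult Hap-I libraries 1 to 4 and 23.4, 11.6, 82.5 and 166 in aged libraries 1 to 4. Aged libraries 3 and 4 stood far above all other kidney libraries, and aged libraries 1 and 2 lay within the range of the adult libraries. Hap-II libraries read 14.5, 15.7, 10.7 and 25.2 and C57 libraries 14.6, 9.64, 9.18 and 8.54. Its log2 change with age was 1.78 ± 0.58 (SE; adjusted p = 0.185) over all libraries, the largest of the 43, 3.41 ± 0.42 (SE; adjusted p = 0.00553) in libraries with Y-linked RNA and -0.37 ± 0.57 (SE; adjusted p = 1) without it. Against C57 the aged group was higher by 2.01 ± 0.58 (SE; adjusted p = 0.0328), although aged library 2 fell inside the C57 range. Within the aged group itself, the pair without Y-linked RNA was lower than the pair with it by a log2 difference of -2.76 ± 0.46 (SE; adjusted p = 0.00699), the only one of the 43 that passed there as deposited (0.604% of genes higher and 0.658% lower). After rescaling 5 passed there as lower, Irf7, Usp18, Ifit1, Irgm1 and Oas1a, against 1.23% of genes. The split was made with these levels known, so these calls only describe the libraries and are no independent support for a difference.

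Stat2, a member of the type I complex, read 4.21, 2.76, 1.999 and 1.41 TPM in adult Hap-I, 4.99, 5.39, 8.31 and 8.01 in aged, 4.07, 2.82, 2.34 and 3.95 in Hap-II and 5.16, 6.56, 5.82 and 6.2 in C57. All aged libraries exceeded all adult ones, and every adult library of both haplotypes lay under every C57 library. As deposited, 59.7% of all genes were called lower than in C57 in adult Hap-I and 36.9% in Hap-II. Positions of adults under C57, here and for the genes below, are read against those shares. The age change was 1.13 ± 0.25 (SE; adjusted p = 0.0985), and 1.61 ± 0.27 (SE; adjusted p = 0.0205) with Y-linked RNA. Irf9, the DNA-binding member of that complex, read 10.6, 7.25, 5.09 and 4.37 TPM in adult Hap-I, 9.69, 8.75, 15.7 and 16 in aged, 10.8, 8.25, 4.72 and 7.68 in Hap-II and 11.7, 12.7, 13.2 and 10.6 in C57. Aged libraries 3 and 4 were again the highest, and the groups overlapped. Usp18, which removes ISG15 from proteins and damps the receptor, ranged over 1.90 to 5.47 TPM in adult Hap-I and 4.44 to 16.2 in aged.

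Among the nucleic acid sensors, Zbp1, a sensor of Z-form nucleic acid that can start cell death, read 4.95, 2.33, 1.54 and 2.79 TPM in adult Hap-I, 8.32, 4.48, 9.65 and 11.1 in aged, 3.36, 3.42, 2.95 and 4.45 in Hap-II and 4.72, 3.68, 3.15 and 3.11 in C57. Aged libraries 1, 3 and 4 topped every other kidney library and aged library 2 lay within the adult range. The aged group was higher than C57 by 0.96 ± 0.28 (SE; adjusted p = 0.0332). Ifi204 and Ifi209 belong to the PYHIN family of DNA-binding proteins. Ifi204 read 3.94, 2.63, 1.27 and 2.26 TPM in adult Hap-I, 7.05, 4.53, 6.58 and 9.4 in aged, 2.85, 3.43, 2.32 and 3.77 in Hap-II and 2.25, 3.19, 3.26 and 1.58 in C57. Every aged library was above every other kidney library, and the change against C57 was 1.14 ± 0.27 (SE; adjusted p = 0.0168). Ifi209 read 1.13, 0.898, 0.503 and 0.274 TPM in adult Hap-I, 2.43, 3.04, 2.49 and 1.74 in aged, 1.42, 1.31, 1.22 and 0.997 in Hap-II and 1.24, 0.939, 0.817 and 0.714 in C57. Here too all aged libraries topped all others, and aged library 2, without Y-linked RNA, was the highest. Its age change was 1.02 ± 0.19 (SE; adjusted p = 0.0659), 1.01 ± 0.23 (SE; adjusted p = 0.119) with Y-linked RNA and 0.81 ± 0.31 (SE; adjusted p = 1) without, the only one of the 43 with an unadjusted p under 0.05 in the libraries without Y-linked RNA.

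The RNA sensors differed in how C57 compared. Ddx58 (RIG-I) read 6.81, 4.94, 4.52 and 3.21 TPM in adult Hap-I, 5.43, 10.4, 12.1 and 12.7 in aged, 10.1, 7.6, 4.07 and 5.66 in Hap-II and 8.11, 15.1, 14.5 and 16 in C57. 3 of 4 C57 libraries were above every western-diet library. Ifih1 (MDA5) read 4.2, 2.94, 2.27 and 1.9 TPM in adult Hap-I, 4.6, 4.73, 6.45 and 5.78 in aged, 4.93, 4.65, 2.68 and 3.24 in Hap-II and 4.85, 6.42, 6.19 and 4.93 in C57. The aged and C57 libraries shared a range above all adult Hap-I libraries. Dhx58 (LGP2), which tunes both sensors, ranged over 0.468 to 2.23 TPM in adult Hap-I, 1.67 to 4.36 in aged and 1.80 to 2.48 in C57, with aged libraries 3 and 4 the highest. All 3 sensors had aged libraries 3 and 4 above 1 and 2.

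The IFIT proteins bind viral RNA or translation factors, and the OAS enzymes make the messenger that activates RNase L. Ifit3 read 32.1, 27.5, 11.5 and 9.73 TPM in adult Hap-I, 33, 32.3, 60.7 and 98.3 in aged, 28.2, 34.8, 13.3 and 27.5 in Hap-II and 48.6, 48.8, 52.2 and 53.2 in C57. The aged libraries topped the adult Hap-I ones by a narrow gap, and libraries 1 and 2 of the aged group stayed under all C57 libraries while 3 and 4 stood above them. Ifit3 shares 61.8% of its 31-base words with Ifit3b, so reads between them are uncertain. The sum of both was 24.4 ± 13.7 TPM (SD, n = 4) in adult Hap-I, 68.9 ± 36.5 in aged, 32.0 ± 11.3 in Hap-II and 63.4 ± 2.88 in C57. Ifit2 read 5.96, 4.91, 2.46 and 1.12 TPM in adult Hap-I, 7.96, 7.99, 8.54 and 13 in aged, 6.08, 6.86, 2.77 and 5.6 in Hap-II and 6.13, 8.94, 10.5 and 11.2 in C57. Aged library 4 stood apart from 3 near-equal aged libraries. Ifit1, with 2 ISRE cores in the stretch above, read 5.34, 4.26, 1.69 and 1.53 TPM in adult Hap-I and 4.74, 3.07, 12 and 13.1 in aged, so that aged libraries 3 and 4 were clear of both groups' other libraries.

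Oas1a read 5.82, 3.2, 2.1 and 1.54 TPM in adult Hap-I, 5.79, 3.72, 15.1 and 15.4 in aged, 3.89, 4.85, 2.25 and 4.95 in Hap-II and 4.21, 2.53, 3.1 and 2.1 in C57. Aged libraries 3 and 4 were about alike and far above the rest, and the change of the aged group against C57 was 1.29 ± 0.39 (SE; adjusted p = 0.0379). Oas1a shares 68.7% of its words with Oas1g, and the sum of both was 4.57 ± 2.45 TPM (SD, n = 4) in adult Hap-I, 13.7 ± 8.80 in aged, 5.49 ± 1.93 in Hap-II and 4.16 ± 0.989 in C57. Oas2 read 1.04, 0.644, 0.369 and 0.509 TPM in adult Hap-I, 2.3, 0.724, 4.68 and 3.77 in aged, 0.427, 0.694, 0.632 and 1.37 in Hap-II and 0.553, 0.845, 0.879 and 0.547 in C57. It was above 1 TPM in 5 kidney libraries, 3 of them aged, and the change of the aged group against C57 was 1.05 ± 0.29 (SE; adjusted p = 0.03001). As the aged group admitted Oas2 to the test, that value is no independent support; with no filter on low values the adjusted p was 0.042, and with a pseudocount of 0.1 it was 0.057. Oasl2 read 7.09, 5.75, 1.91 and 1.98 TPM in adult Hap-I, 7.46, 6.71, 17.1 and 18.6 in aged, 6.25, 5.33, 2.24 and 5.82 in Hap-II and 6.99, 8.96, 8.52 and 7.46 in C57, with aged libraries 3 and 4 above all others.

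Of the other antiviral effectors, Bst2 read 41.9, 26.1, 14.3 and 19.5 TPM in adult Hap-I, 51.3, 39.4, 121 and 144 in aged, 46.1, 39, 21.1 and 47 in Hap-II and 61.4, 32, 35.5 and 31.7 in C57. Aged libraries 3 and 4 were the highest kidney libraries by a wide gap, C57 library 1 came next, and the groups overlapped. Its age change was 1.67 ± 0.41 (SE; adjusted p = 0.125) over all libraries, 2.70 ± 0.37 (SE; adjusted p = 0.00915) with Y-linked RNA and 0.10 ± 0.49 (SE; adjusted p = 1) without. Isg15, the ubiquitin-like protein that is attached to other proteins during the response, read 23, 17.5, 6.78 and 12.9 TPM in adult Hap-I, 33.7, 10.05, 43.8 and 84.8 in aged, 16.5, 22.1, 11.2 and 18.7 in Hap-II and 17.1, 10.8, 12.7 and 9.71 in C57. Aged library 2 was among the lowest 3 kidney libraries for Isg15, and aged library 4 was the highest. Its age change was 1.24 ± 0.47 (SE; adjusted p = 0.242), 2.30 ± 0.48 (SE; adjusted p = 0.0851) with Y-linked RNA and -0.29 ± 0.65 (SE; adjusted p = 1) without. Samd9l read 21.5, 24.1, 21.3 and 10.9 TPM in adult Hap-I, 20.7, 34.9, 27.3 and 18.5 in aged, 31.9, 25.8, 15 and 20.2 in Hap-II and 30.6, 48.5, 42.2 and 41.2 in C57. It had the smallest age change of the 43, 0.38 ± 0.28 (SE; adjusted p = 0.456), and aged library 4, the highest for most type I-like genes, was its lowest aged library. The other members of this list, Mx1, Mx2, Rsad2 and Trim30a, had age changes of 0.55 to 0.87.

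Parp9 and its partner Dtx3l form a ubiquitin ligase of the response, and Parp14 is a related mono-ADP-ribosyl transferase. Parp9 read 7.24, 6.96, 5.72 and 3.65 TPM in adult Hap-I, 7.15, 9.38, 14.2 and 11.1 in aged, 8.03, 7.03, 5.64 and 8.4 in Hap-II and 8.05, 11.3, 11.1 and 10.4 in C57. Dtx3l read 1.83, 1.53, 1.17 and 0.509 TPM in adult Hap-I, 1.97, 2.85, 4.23 and 3.23 in aged, 2.92, 1.54, 1.06 and 2.09 in Hap-II and 2.38, 4.06, 4.04 and 3.64 in C57. Parp14 read 3.28, 1.9, 1.23 and 1.19 TPM in adult Hap-I, 3.57, 2.68, 6.07 and 5.76 in aged, 2.88, 2.01, 1.09 and 2.96 in Hap-II and 3.31, 5.05, 5.63 and 4.34 in C57. For all of them aged library 3 was the highest aged library, and all adult Hap-I libraries lay under all C57 libraries as deposited. On that scale 59.7% of all genes were called lower in adult Hap-I than in C57, and Parp9 changed sign after rescaling.

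Phf11b and Phf11d are PHD-finger genes of the interferon response. Phf11b read 4.83, 2.94, 2.29 and 1.5 TPM in adult Hap-I, 8.58, 6.9, 8.4 and 12.9 in aged, 3.5, 2.9, 2.25 and 3.16 in Hap-II and 3.98, 1.96, 1.96 and 2.12 in C57. Every aged library exceeded every other kidney library, with and without Y-linked RNA. Its age change was 1.43 ± 0.27 (SE; adjusted p = 0.0659) and its change against C57 1.54 ± 0.27 (SE; adjusted p = 0.0056), the lowest adjusted p of the 43 in that comparison. Phf11d read 10.01, 6.51, 5.08 and 4.24 TPM in adult Hap-I, 14.2, 7.95, 15.9 and 22.7 in aged, 6.12, 6.32, 5.79 and 10.5 in Hap-II and 6.74, 6.1, 5.28 and 4.6 in C57. Its aged library 2 fell inside the adult range, and the change against C57 was 1.20 ± 0.30 (SE; adjusted p = 0.0197). Xaf1, which antagonises inhibitors of apoptosis, read 16.9, 15.8, 9.69 and 13.4 TPM in adult Hap-I, 33.1, 12.6, 26.1 and 60.8 in aged, 10.2, 19.3, 8.89 and 15.8 in Hap-II and 13.9, 7.82, 12.4 and 8.85 in C57. Aged libraries 1, 3 and 4 topped all others, and the change against C57 was 1.37 ± 0.37 (SE; adjusted p = 0.0274). Ifi27l2a read 144, 84.7, 69.7 and 62.2 TPM in adult Hap-I, 217, 61.2, 195 and 545 in aged, 58.5, 111, 95.9 and 108 in Hap-II and 375, 182, 62.7 and 31.6 in C57. Its C57 libraries spread more widely than those of any other type I-like gene named here, and no comparison separated its groups. Ifi35 read 14.5, 11.6, 9.64 and 11.4 TPM in adult Hap-I, 12.4, 15.6, 22.9 and 31.1 in aged, 12, 14.8, 9.82 and 11.9 in Hap-II and 23.3, 15.8, 17.7 and 17.1 in C57, with all adult western-diet libraries under all C57 ones as deposited. Its change in adult Hap-I against C57 turned positive after rescaling.

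Of the 6 gamma-like GTPases, Igtp, Irgm1 and Iigp1 had aged libraries 3 and 4 above 1 and 2, as Irf7 did, Gbp3 had the reverse, and Gbp2 and Gbp7 had neither. Gbp3, a guanylate-binding protein, read 22.9, 5.13, 2.71 and 2.93 TPM in adult Hap-I, 19.5, 39.3, 13.4 and 17.4 in aged, 22.6, 18.2, 2.44 and 5.05 in Hap-II and 29.3, 65.3, 58.6 and 34.6 in C57. Within each western-diet group the libraries without Y-linked RNA all exceeded those with it. Among adults on the diet, the libraries without Y-linked RNA were higher by a log2 difference of 2.32 ± 0.34 (SE; adjusted p = 0.00139), the only one of the 43 that passed there, against 1.56% of all genes higher and 0.704% lower. It passed after rescaling too (log2 difference 1.88 ± 0.27 (SE; adjusted p = 0.00104)). Here as well the split was made with the levels known, so the call is no independent support. In the aged group the same difference was 0.82 ± 0.45 (SE; adjusted p = 0.584). Its age change was 1.67 ± 0.62 (SE; adjusted p = 0.227) over all libraries.

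Gbp2 read 8.56, 5.86, 3.19 and 1.65 TPM in adult Hap-I, 6.7, 7.34, 8.72 and 6.74 in aged, 7.5, 6.05, 3.45 and 4.84 in Hap-II and 13.3, 14.2, 13.2 and 7.89 in C57. The 4 aged libraries lay close together and did not follow the order of Irf7. Gbp7 read 3.14, 1.93, 1.47 and 0.627 TPM in adult Hap-I, 3.28, 5.65, 5.71 and 3.75 in aged, 4.31, 2.08, 1.3 and 2.96 in Hap-II and 1.84, 5.87, 5.18 and 2.95 in C57. All aged libraries were above all adult Hap-I ones. The immunity-related GTPases Igtp and Irgm1 sit on vacuole membranes, Irgm1 as a regulator of the others. Igtp read 11.2, 9.13, 4.01 and 3.23 TPM in adult Hap-I, 7.74, 11.7, 27.6 and 13.2 in aged, 16.3, 9.33, 5.24 and 8.08 in Hap-II and 22.1, 21.7, 23.2 and 13.3 in C57. Irgm1 read 21.3, 16.6, 12.4 and 7.79 TPM in adult Hap-I, 16.9, 33, 65.1 and 42.5 in aged, 34.6, 20.1, 10.1 and 23.7 in Hap-II and 38.2, 46.4, 47.7 and 39.2 in C57. For both, aged library 3 was the highest kidney library and aged library 1 the lowest aged one. Iigp1, another GTPase of this family, ranged over 2.32 to 9.02 TPM in adult Hap-I and 5.35 to 13.7 in aged.

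Of the genes of antigen processing, Psmb8, a subunit of the immunoproteasome, read 12.7, 9.35, 6.33 and 3.78 TPM in adult Hap-I, 18.5, 17.4, 13.9 and 11 in aged, 11.1, 10.8, 2.16 and 9.78 in Hap-II and 22, 10.7, 8.14 and 10.4 in C57. In the aged group its order was the reverse of Irf7's in that libraries 1 and 2 topped 3 and 4. Tap1, which carries peptides into the endoplasmic reticulum, read 4.53, 2.997, 2.04 and 2.3 TPM in adult Hap-I, 8.23, 6.59, 7.05 and 7.23 in aged, 7.99, 4.81, 3.13 and 3.72 in Hap-II and 11.9, 7.1, 7.12 and 6.16 in C57. All aged libraries exceeded all adult Hap-I ones, and the age change was 1.10 ± 0.27 (SE; adjusted p = 0.125). Psmb9 and the chemokine Cxcl10 had age changes of 0.74 and 0.91.

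**Figure D4:**
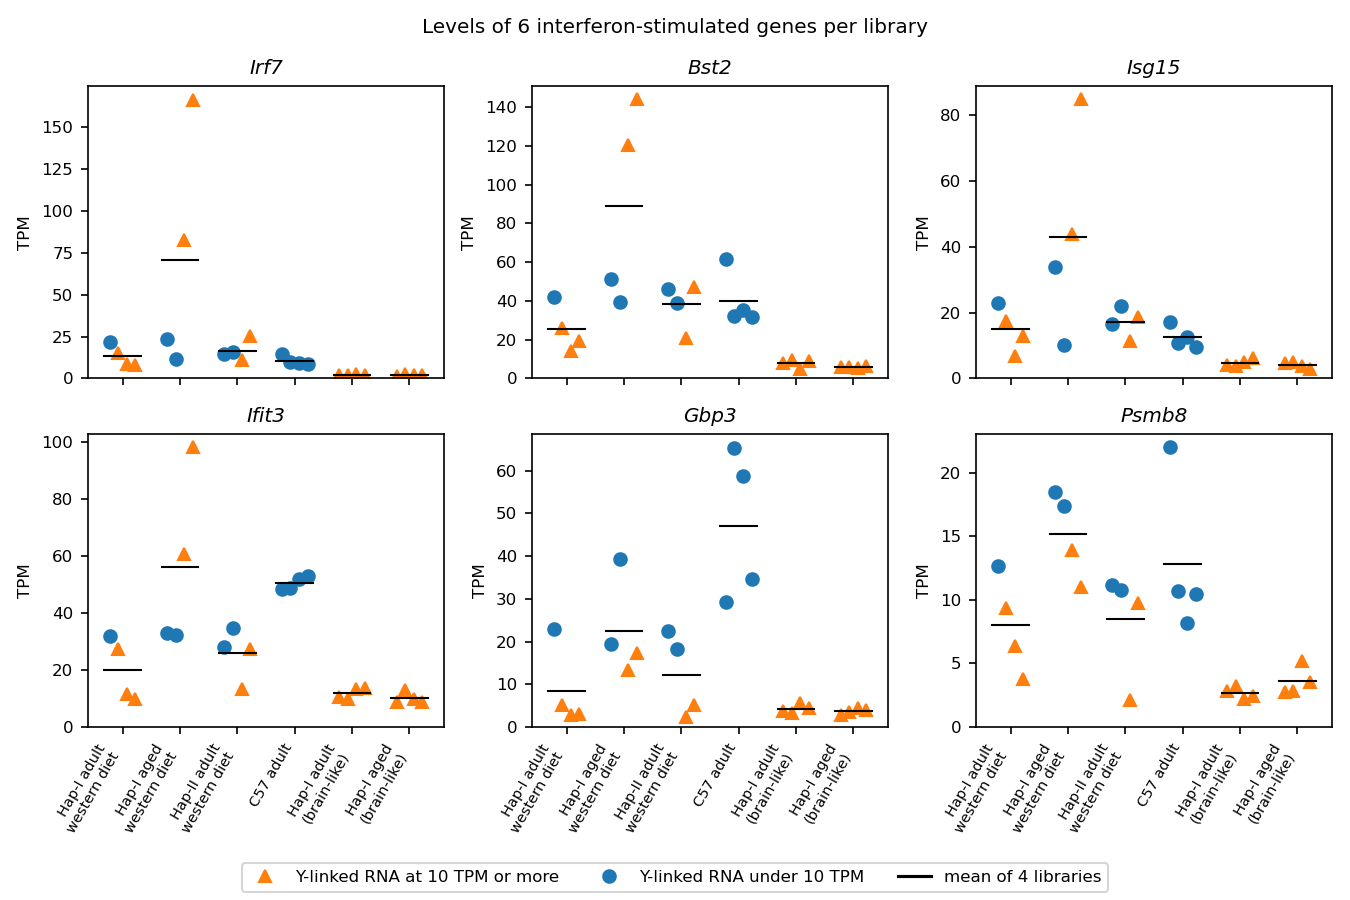
TPM of Irf7, Bst2, Isg15, Ifit3 (type I-like), Gbp3 and Psmb8 (gamma-like) in each library (points) with the mean of 4 libraries (lines), orange triangles with Y-linked RNA and blue circles without. Irf7 reaches 82.5 and 166 TPM in aged western-diet libraries 3 and 4, whereas Gbp3 and Psmb8 are higher in aged libraries 1 and 2 than in 3 and 4, the 2 of the 10 gamma-like genes with that order, and 4 of the 10 (Igtp, Irgm1, Iigp1 and Cxcl10) have the order of Irf7.

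Counted over the lists, the aged libraries differed from one another. Libraries 3 and 4, with Y-linked RNA, were both above libraries 1 and 2 for 26 of 33 type I-like genes (78.8%) and 4 of 10 gamma-like genes (40%), against 8.81% of genes. Both were below 1 and 2 for 0 and 2 genes, against 18.4%. The ratio of the highest to the lowest aged library was largest for Irf7 (14.4) and had a median of 2.5 over type I-like and 1.77 over gamma-like genes. Among adult Hap-I libraries, the lone library without Y-linked RNA was the highest for 32 of 33 type I-like and 9 of 10 gamma-like genes (56.3% of all genes). In Hap-II both libraries without Y-linked RNA were above both with it for 9 of 33 type I-like and 7 of 10 gamma-like genes, also 56.3% of all genes. The share of type I-like genes was thus above the background in adult Hap-I and under it in Hap-II.

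Marker genes of other cells moved with these groups, and their part in the result was not tested. Summed TPM of 10 macrophage markers was 58.9 to 219 in adult Hap-I and 520, 302, 261 and 146 in aged libraries 1 to 4. The leukocyte gene Ptprc was 0.860 to 3.79 TPM in adult Hap-I and 13.0, 6.01, 5.30 and 3.12 in aged. The aged libraries with the highest Irf7 had the lowest macrophage sums and Ptprc values of their group, an order that the T and NK cell and neutrophil sums below did not share. Summed TPM of 8 B and plasma cell markers was 55.8 to 239 in adult Hap-I and 596 to 1500 in aged, with libraries 3 and 4 the lower ones. Summed TPM of 10 T and NK cell markers was 6.42 to 14.4 in adult Hap-I and 28.7, 15.7, 18.7 and 18.8 in aged libraries 1 to 4. For 5 neutrophil markers it was 9.55 to 63.4 in adult Hap-I and 83.7, 20.3, 34.4 and 13.5 in aged libraries 1 to 4. The 5 plasmacytoid dendritic cell markers, from the cells known for the most type I interferon, summed to at most 1.60 TPM in both groups. Nephron markers summed to 556 to 1632 in adult Hap-I and to 1085, 3912, 3042 and 762 in aged. The median log2 change with age was 1.08 over the 10 macrophage markers and 0.94 over 9 endothelial markers, all above 0 in every kidney library, beside 1.03 over the 43. Over all genes it was 0.32.

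The rest of the pathway was read from a list of 113 genes in the table that are not among the 43. None of the 19 interferon genes passed the filter on low values, so they were not tested in kidney. Of the 81 genes that did pass, 0 were called with age on the diet (0.0232% of all genes higher), 79 were above 0 (82.2%) and 49 were higher at an unadjusted p under 0.05 (14.9%). Medians were 0.84 over 46 further interferon targets, 0.62 over 7 transcription factors, 0.49 over 8 receptors and kinases and 0.50 over 9 genes that induce interferon, beside 0.32 over all genes.

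The comparison of Hap-I with Hap-II adults on western diet asks whether the haplotype matters. None of the 43 passed the threshold, against 0.0232% of genes higher and 0.0542% lower. 1 of the 43, Ifi209, had an unadjusted p under 0.05 (-0.42 ± 0.19 (SE; adjusted p = 0.817)), against 2.75% of genes lower. Hap-I minus Hap-II had a median log2 change of -0.26 over type I-like and -0.34 over gamma-like genes, close to the -0.22 over all genes, and 37 of the 43 were below 0, against 83% of genes. The median was -0.06 after rescaling, with 18 of 43 above 0, against 50.7% of genes. The libraries with and without Y-linked RNA gave opposite signs, with medians over the 43 of -0.33 (all genes -0.04) and 0.24 (all genes -0.25). The value without Y-linked RNA sets 1 Hap-I library against 2 Hap-II libraries. That Hap-I library was the highest of its group for 32 of 33 type I-like genes, so this sign rests on 1 animal. For Irf7 the change was -0.34 ± 0.58 (SE; adjusted p = 0.85), for Bst2 -0.61 ± 0.41 (SE; adjusted p = 0.817) and for Gbp3 -0.54 ± 0.62 (SE; adjusted p = 0.818).

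The comparisons with C57 adults ask how kidneys of the transgenic mice on the diet differ from those of plain C57 mice. They turn on the scale, because most genes had lower TPM in the western-diet libraries. The median log2 change over all genes was -0.80 for adult Hap-I, -0.59 for Hap-II and -0.48 for aged Hap-I, and near 0 after median-of-ratios rescaling. For the interferon-stimulated genes, the counts of calls and the list medians with no library left out are therefore given both as deposited and rescaled. Most changes of single genes against C57, here and above, are given as deposited only. The 3 comparisons share the 4 C57 libraries, none with Y-linked RNA, whereas 3 adult Hap-I, 2 Hap-II and 2 aged Hap-I libraries carried it.

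In adult Hap-I, 18 of 43 genes were lower than in C57 and none higher, against 59.7% of all genes lower and 2.28% higher. The 18 were 12 type I-like genes (Ddx58, Stat2, Dtx3l, Samd9l, Ifit2, Ifit3, Ifih1, Parp14, Parp9, Irf9, Oasl2 and Ifi35) and 6 gamma-like genes (Gbp3, Tap1, Irgm1, Gbp2, Igtp and Gbp7). The share of 41.9% lower is under the background. After rescaling 1 was lower, Gbp3, and 3 were higher, Xaf1, Phf11d and Phf11b, against 14.0% and 18.2% of genes. The median log2 change was -0.42 over type I-like and -1.01 over gamma-like genes as deposited, and 0.32 and -0.25 rescaled, so that type I-like genes changed sign. Irf9, Ifi35 and Parp9 were lower as deposited and had values of 0.11, 0.35 and 0.17 rescaled. Gbp3 averaged 8.42 ± 9.73 (SD, n = 4) TPM in adult Hap-I and 47 ± 17.7 (SD, n = 4) in C57, a log2 change of -2.74 ± 0.62 (SE; adjusted p = 0.00262), and -1.82 ± 0.51 (SE; adjusted p = 0.0158) rescaled. Within libraries without Y-linked RNA (1 Hap-I against 4 C57) none of the 43 passed (0.0232% of genes lower), the medians were 0.19 over type I-like and -0.30 over gamma-like genes beside -0.56 over all genes, and Gbp3 had a change of -0.93 ± 0.50 (SE; adjusted p = 0.247).

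In adult Hap-II, 8 of 43 were lower than in C57 and none higher, against 36.9% of genes lower and 2.73% higher. They were Gbp3, Gbp2, Irgm1, Igtp, Stat2, Ddx58, Samd9l and Parp14. After rescaling 1 was lower, Gbp3, at -1.53 ± 0.51 (SE; adjusted p = 0.0428), and 1 was higher, Ifi209, at 0.55 ± 0.17 (SE; adjusted p = 0.0337), against 9.56% and 13.1% of genes. The medians were -0.15 over type I-like and -0.76 over gamma-like genes as deposited, and 0.35 and -0.16 rescaled. The count rested on single libraries: it was 0 without Hap-II library 3, 2 without Hap-II library 4, 1 without C57 library 2 or 3, 2 without C57 library 4 and 14 without Hap-II library 1. The type I-like median was 0.01 without Hap-II library 3. All-gene shares under these omissions are not given, so whether the 43 moved apart from other genes cannot be judged. Within libraries without Y-linked RNA (2 against 4) none passed (0.31% of genes higher and 1.87% lower), and Gbp3 had a change of -1.09 ± 0.39 (SE; adjusted p = 0.139).

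In aged Hap-I, 9 of 43 were higher than in C57 and none lower, against 1.24% of genes higher and 16.3% lower. All 9 were type I-like (8 of the 41 without Oas2 and Mx1): Phf11b, Ifi204, Ifi209, Phf11d, Xaf1, Oas2, Irf7, Zbp1 and Oas1a. The same 9 were among the 15 called after rescaling (14 of the 41, 3.51% of genes higher) and the 18 called after quantile normalization (16 of the 41, 5.51%). The further genes called after rescaling were Rsad2, Ifi44, Trim30a, Isg15, Bst2 and the gamma-like Cxcl10. The medians were 0.53 over type I-like and 0.07 over gamma-like genes as deposited, and 1.01 and 0.54 rescaled. The count depended on single libraries, being 3, 15, 5 and 2 without aged library 1, 2, 3 or 4, and 2, 2 and 1 without C57 library 2, 3 or 4. All-gene shares under these omissions are not given either. Within libraries without Y-linked RNA (2 against 4), 2 passed, Phf11b at 1.35 ± 0.29 (SE; adjusted p = 0.0256) and Ifi209 at 0.96 ± 0.22 (SE; adjusted p = 0.0314), against 0.712% of genes higher. Age, transgene and diet all differ between these groups and cannot be told apart. Over all libraries Y-linked RNA differs too, as 2 of the 4 aged libraries and no C57 library carried it.

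Marker genes of other cells moved with the comparisons against C57 too, as deposited, and their part in the results was not tested. Over all genes, 2.28%, 2.73% and 1.24% were called higher and 59.7%, 36.9% and 16.3% lower in adult Hap-I, Hap-II and aged Hap-I. The medians over all genes were -0.80, -0.59 and -0.48, and the marker values are read against these. Summed TPM of 5 neutrophil markers was 1.94 to 5.50 in C57, 9.55 to 63.4 in adult Hap-I, 9.74 to 45.8 in Hap-II and 13.5 to 83.7 in aged Hap-I. Of the 4 neutrophil markers tested, 2, 3 and 4 were called higher in adult Hap-I, Hap-II and aged Hap-I, with medians of 1.36, 1.64 and 1.89. Of 8 T and NK cell markers tested, 0, 1 and 2 were called higher, while of 10 macrophage markers 0, 0 and 1 were called higher and 3, 1 and 0 lower. The 9 endothelial markers were all called lower in both adult groups (medians -1.20 and -1.03) and none was called in aged Hap-I (median -0.40). Their summed TPM was 324 to 416 in C57, 110 to 218 in adult Hap-I, 102 to 247 in Hap-II and 221 to 317 in aged Hap-I. Of 11 nephron markers, 9, 5 and 3 were called lower, and their summed TPM was 3597 to 6099 in C57 and 556 to 3912 over the 12 western-diet libraries.

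**Figure D5:**
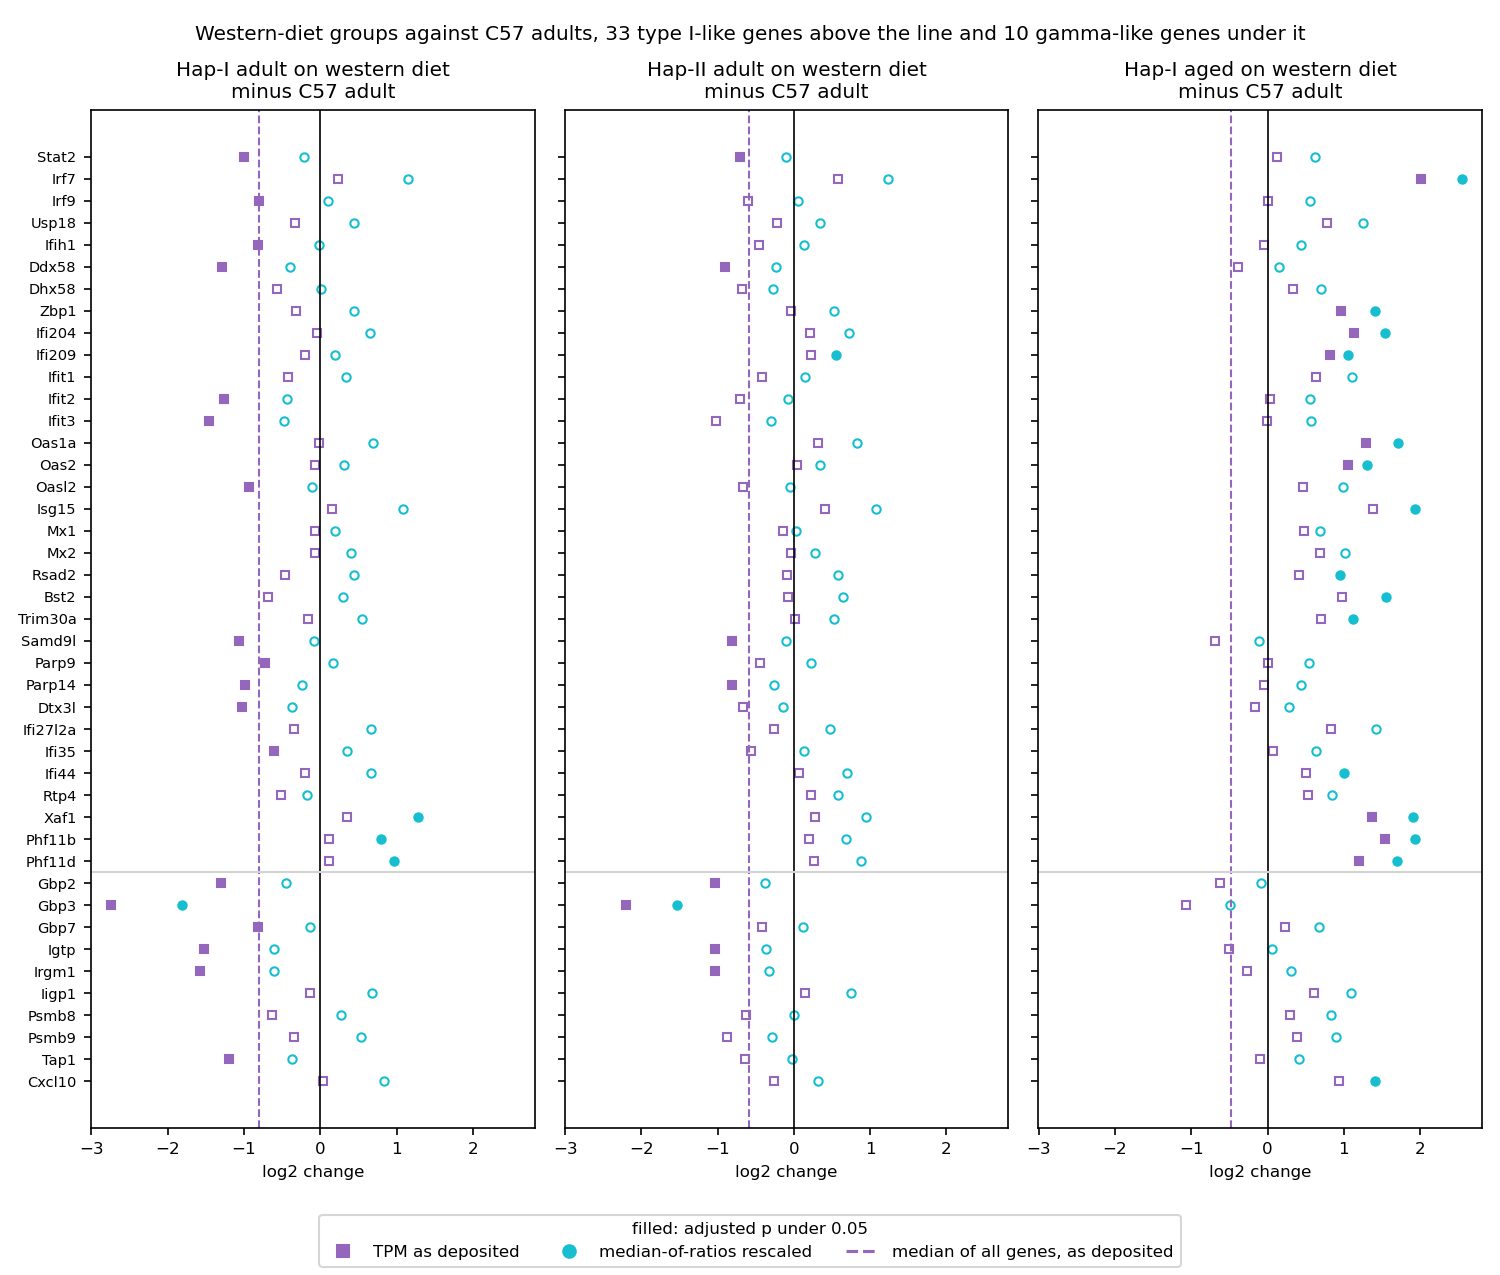
Log2 change of each gene against C57 adults in the 3 western-diet groups, from TPM as deposited (purple squares) and after median-of-ratios rescaling (cyan circles), filled where the adjusted p was under 0.05, with the median of all genes as deposited as a dashed line. Rescaling moves nearly all points to the right, Gbp3 stays far left in both adult groups (-2.74 and -2.20 as deposited), and the filled points of the aged group are on the right.

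Outside the 43, the pathway list was compared with C57 as deposited. Of its 81 tested genes, 47 were lower in adult Hap-I than in C57, 28 in Hap-II and 2 in aged Hap-I, against 59.7%, 36.9% and 16.3% of all genes. 0, 0 and 3 of them were higher, against 2.28%, 2.73% and 1.24%. In aged Hap-I the 3 higher genes were Ifi213, Ifi211 and Socs3, a feedback inhibitor of JAK signalling, and the 2 lower ones were Mavs and Tmem173, the adaptors of RNA and DNA sensing. Tmem173 changed by -0.64 ± 0.19 (SE; adjusted p = 0.0355) there, beside a median of -0.48 over all genes. Rescaled values are not given for these pathway genes, so a shift of the library scale cannot be told apart from a change of their own.

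The brain-like libraries give the age comparison without the diet label, in a tissue other than kidney. 29 of the 43 passed the filter there and none was called, against 0.0296% of genes higher and 0% lower. The median log2 change, aged minus adult, was -0.09, against 0.12 over all genes, and 9 of 29 were above 0, against 72.9% of genes. Irf7 read 1.8, 1.97, 2.45 and 1.92 TPM in adults and 1.76, 2.4, 2.22 and 1.94 in aged animals, Bst2 7.74, 9.64, 4.91 and 9.24 and 5.74, 5.92, 5.28 and 6.35, and Isg15 4.24, 3.77, 4.96 and 6.16 and 4.82, 5.01, 3.93 and 2.94. The aged and adult libraries overlapped for each of them. The difference between the age effects on the diet and without it had a median of 1.03 over the 43 (all genes 0.15), and none of the 43 passed for it, against 0.0132% of genes higher. This difference came from 1 fit of all 24 libraries, filtered together, in which both tissues shared 1 estimate of spread. Diet and tissue differ together between these 2 age comparisons and cannot be told apart.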

How the data were processed

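RNA from 24 libraries, made with a TruSeq stranded kit and poly-A selection per the labels, is held in 1 table. Its TPM values were made by the authors and deposited for 30153 Ensembl genes, and kallisto, DESeq2 and the GRCm38 build appear in the submitters' processing notes, with no versions. Columns sum to 904693 to 944019 TPM, so the table holds most but not all of each library. Read depth, and with it counting error, is unknown. Symbols came from GENCODE M21 (29732 IDs matched).

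Groups follow the labels. TPM was fitted as log2(TPM + 1) with limma 3.58.1 in R 4.3.3 (trended variance, genes at 1 TPM in at least 4 libraries, Benjamini-Hochberg adjustment over all genes, threshold 0.05). A fold change on this scale understates the change of low genes. The 16 kidney libraries formed 1 fit of 5 comparisons and the 8 brain-like libraries another, since tissues with different spread should not share one estimate. A joint fit was an alternative, and the difference between the age effects on the diet and without it could only be taken from such a fit. The script was tested on simulated data. Replicates are separate animals by the design text. Genes with values in every library are those called in a kidney comparison, the most abundant of each role list and the 5 largest age changes; Isg15 and Ifit1 were added after their values were seen. The 43 genes and all lists were chosen with earlier results of these data known. Ifi30, Gbp5, Gbp6 and Gbp10 were not analysed here. Promoter windows came from RefSeq (GRCm38.p6).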

Additional observations from a re-analysis of the deposited data

Results flagged for a closer look

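Among 192 sets of 4 libraries (each gene with values in every library, and both list means, in each group), 14 held a library whose gap to its nearest neighbour was too large a share of the range by Dixon's test at 95%. Isg15 and Ifit1, added later, were not among the genes tested here. Chance gives about 1 in 20. In C57, library 1 was high for Bst2 (61.4 TPM), Phf11b (3.98) and Tap1 (11.9), and library 4 was low for Gbp2 (7.89), Igtp (13.3) and the gamma-like mean (3.24 on the log2 scale). In adult Hap-I on western diet, library 1 was high for Gbp3 (22.9 TPM), and it is the group's only library without Y-linked RNA. In the aged group on western diet, library 4 was high for Ifit2 (13.0 TPM). In Hap-II, library 3, the one with the fewest genes above 0 of its group, was low for Psmb8 (2.16 TPM) and the type I-like mean (2.21), and library 4 was high for Phf11d (10.5 TPM). In the brain-like groups, adult library 3 was high for Ddx58 (5.30 TPM) and Xaf1 (12.6), and aged library 2 for Oasl2 (4.40).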

How the results depend on the processing

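No read counts were available, so counting error could not be separated from other spread. For age on western diet, the count of genes called higher went from 0 to 18 with all 24 libraries in the fit, 34 with array weights and 13 within libraries with Y-linked RNA, and it ranged from 0 to 3 when single libraries were left out, where the type I-like median ranged from 0.82 to 1.34 and the gamma-like median from 0.80 to 1.27. The medians were 1.58 (type I-like) with Y-linked RNA, and 0.026 and 0.20 (gamma-like) without it. In the libraries without it 20 of the 43 changed sign, among them Irf7 (-0.37) and Ifi27l2a (-0.31). For the haplotype, no alternative gave a call, the type I-like median was 0.25 without Y-linked RNA, and leaving out single libraries gave -0.46 to -0.07 (type I-like) and -0.59 to -0.08 (gamma-like).

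Against C57, median-of-ratios rescaling gave 3 higher and 1 lower in adult Hap-I (medians 0.32 and -0.25), 1 and 1 in Hap-II (0.35 and -0.16) and 15 higher in aged Hap-I (1.01 and 0.54), and Irf9 (0.11), Ifi35 (0.35) and Parp9 (0.17) changed sign in adult Hap-I. Quantile normalization gave 3 higher and 1 lower (0.38 and -0.12), 1 and 1 (0.42 and -0.067) and 18 higher (1.05 and 0.58), with Irf9 (0.17), Ifi35 (0.31), Parp9 (0.24), Ifih1 (0.11), Oasl2 (0.024) and Gbp7 (0.0094) changing sign in adult Hap-I, and medians of -0.21 and -0.24 for age without the diet. Within libraries without Y-linked RNA, 0 were lower in adult Hap-I (0.19 and -0.30), 0 in Hap-II (gamma-like -0.28) and 2 were higher in aged Hap-I (type I-like 0.090). With the mean log2(TPM + 1) of the Y-linked genes as a covariate the counts were 9 lower, 1 lower and 3 higher. Array weights gave 1 higher in adult Hap-I (its count lower is not given here), 4 higher and 19 lower in Hap-II, and 18 higher and 2 lower in aged Hap-I. All-gene shares under array weights are not given for these comparisons. For age on western diet 15.8% of all genes were called higher with array weights, against 0.0232% in the main fit. The joint fit of 24 libraries gave 19 lower in adult Hap-I, 16 lower in Hap-II, and 11 higher and 1 lower (Samd9l) in aged Hap-I. In Hap-II the count lower was also 1 without mitochondrially encoded genes, 5 with no filter and 1 without the 2 libraries with the fewest genes, a setting that gave 1 lower in aged Hap-I. A filter of 5 TPM gave 5 higher in aged Hap-I and a type I-like median of -0.35 in Hap-II. Leaving out single libraries gave 13 to 19 lower in adult Hap-I (medians -0.68 to -0.22 and -1.20 to -0.79), 0 to 14 lower in Hap-II (-0.23 to 0.01 and -0.94 to -0.53), and 1 to 15 higher and 0 to 1 lower in aged Hap-I (0.34 to 0.74 and -0.02 to 0.14). For age without the diet it gave -0.15 to -0.01 and -0.14 to -0.03, and 0 calls. Causes were not tested, and all-gene shares for the counts with single libraries left out are not given. The split by Y-linked RNA and the removal of 2 libraries were chosen after seeing the data.

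Libraries with the same title number were not paired (correlations of their deviations from -0.13 to 0.54, 8 of 12 pairs over 0.1, 4 of 12 libraries correlating best with their own number), and a replicate block gave 0 calls for age and 0 for haplotype among the 43. C57 libraries share no number, so no block was possible there.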
